A study of Mus musculus with 12 samples.

Results

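Bidirectional promoter lncRNAs are long noncoding RNAs that start beside the start of a protein-coding gene and are transcribed away from it, on the opposite strand. The transcripts described here are those in the deposited lncRNA expression table to which GENCODE M21 gives the transcript type bidirectional_promoter_lncRNA. They were 144 of the 1432 lncRNA transcripts in that table, from 114 genes, and the annotation holds 327 transcripts of the type in all. The divergent partner of each was taken as the protein-coding gene on the opposite strand with the nearest start, where that start lay within 2 kb. GENCODE held no entry for 1 lncRNA transcript and for 7 of the 29883 protein-coding transcripts, which were left unassigned.

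The study gave PZH (Pien Tze Huang, a traditional Chinese medicine) to mice with liver fibrosis caused by carbon tetrachloride (CCl4), and asked which liver transcripts differ from those of untreated fibrotic mice. Libraries depleted of ribosomal RNA and prepared by a strand-specific protocol were sequenced from the livers of 6 PZH mice and 6 Control mice taken at week 8. Transcript levels were given as FPKM (fragments scaled by transcript length and by the depth of the library). Both groups were male mice aged 6 weeks at the start, and the labels spell their strain C57BL/8 whereas the study's methods name C57BL/6J. Both received 2 intraperitoneal injections of a CCl4 mixture a week, at 10 µl per g of body weight. PZH mice also received 0.25 mg of PZH per g by mouth each day, and Control mice received water in its place (agent "none" in the labels). No mouse without CCl4 was sequenced, so every comparison is between treated and untreated fibrotic liver.

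Most mammalian promoters can start transcription in both directions. On the coding side, U1 snRNP binding protects the growing transcript from early cleavage, while upstream antisense transcripts are commonly ended early by cleavage and polyadenylation factors or the Integrator complex and then degraded by the nuclear RNA exosome, so that those surviving as annotated lncRNAs are usually scarce. Some act on the neighbouring gene and others have no known function, and their levels have often been compared with those of the partner because both start from a shared region of open chromatin.

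The expression tables give no read totals, so the depth of each library was estimated from the steps between low FPKM values of 575 genes with a single transcript of a single exon. Between 13.8% and 22.9% of values of 0.5 to 6.5 fragments fell within 0.01 of a whole number at the best depth, against 1.36% to 1.70% at a typical depth. The implied depth was 27.6 to 42.7 M fragments (M, mega) in PZH libraries, with a median of 30.3 M. Control libraries held 26.9 to 35.6 M, with a median of 30.0 M. At these depths the median bidirectional promoter lncRNA rested on about 10 fragments per mouse, and 72 of the 144 rested on fewer than 10.

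The liver label was checked against 6 hepatocyte markers, all of which were listed and none of which was at 0 in any mouse. Their summed level was 41171, 45125 and 57065 FPKM (lowest, median and highest) in PZH mice and 23273, 30126 and 36957 FPKM in Control mice. Albumin (Alb), the main plasma protein made by hepatocytes, was the most abundant marker with a mean of 31248 FPKM. The groups did not overlap in the summed level.

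Of the 144 transcripts, 140 had a partner within 2 kb and 137 had one that was also listed in the protein-coding table. The 140 partners came to 111 genes, of which 108 were listed among the 14188 genes of that table and 22 were shared by several lncRNA transcripts. The distance between the starts ranged from 1 to 1700 bases with a median of 184, and 89 transcripts started within 250 bases of their partner. Just inside the limit was Gm9828, which starts 1700 bases from Btf3, a subunit of the nascent polypeptide-associated complex. Just outside it was the 1010001N08Rik transcript ENSMUST00000232314, which starts 4427 bases from Gata6, a zinc-finger transcription factor. The other transcripts without a partner within 2 kb were Gm38560, Gm47884 and AW046200. In 87 transcripts the starts lay head to head with no shared bases, and in 53 the 5′ ends of lncRNA and partner overlapped. Exons overlapped in 42. For those, reads of a gene and of its antisense partner can be told apart only by strand, and the strand setting used in counting is not stated.

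All 144 transcripts lay on chromosomes 6 to 19. None was listed on chromosomes 1 to 5, where GENCODE M21 places 9 transcripts of the type and where the lncRNA table lists 391 transcripts of other types. A single exon made up 41 of them (28.5%), compared with 166 of the 1275 long intergenic noncoding RNAs (lincRNAs) in the table (13.0%), while 50 had 2 exons and 29 had 3. Their spliced length was 271 to 8257 bases, with a median of 1119 bases against 1092 bases for lincRNAs. Of the 114 genes, 22 had more than 1 listed transcript, with 4 at most, and reads shared by such transcripts were divided among them by the assembler, so their separate values are less certain than those of a gene with 1 transcript.

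Mean FPKM over the 12 mice ranged from 0.0873 to 6.44 among bidirectional promoter lncRNAs. Their median was 0.331 FPKM, close to the 0.349 FPKM of lincRNAs, but fewer were abundant: 19 (13.2%) reached 1 FPKM, compared with 21.9% of lincRNAs. In 31 the level was 0 in at least 1 mouse. The 6 most abundant transcripts held 26.8% of their summed FPKM. The partner genes had a median of 6.82 FPKM against 4.11 FPKM over all genes, and 104 of the 108 reached 1 FPKM. Per length, the partner was 19.6 times as abundant as its lncRNA in the median pair. The lncRNA was the more abundant in 4 pairs only, those of 4632427E13Rik with Rab30, Ndufb1-ps (ENSMUST00000221422) with Cpsf2, Gm47484 with Zfp410, and 4930470G03Rik.

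Summed over all 144 transcripts, the level was 81.4, 87.9 and 96.1 FPKM (lowest, median and highest) in PZH mice and 70.9, 78.2 and 79.8 FPKM in Control mice. Every PZH mouse lay above every Control mouse, and the group means differed by 11.97 FPKM. The summed level of the partner genes was 1455, 1515 and 1566 FPKM in PZH mice and 1590, 1760 and 1835 FPKM in Control mice. That separation rested on the single partner Actg1, and without it the groups overlapped, at 1416 to 1518 FPKM and 1450 to 1600 FPKM. For the other lncRNAs of the table the sums overlapped, at 9529 to 20338 FPKM and 9524 to 13005 FPKM. The median log2(FPKM + 1) of the bidirectional promoter lncRNAs was 0.37, 0.42 and 0.48 in PZH mice and 0.30, 0.36 and 0.37 in Control mice, and here the groups overlapped slightly. In bulk liver, fewer cells of a type and less RNA per cell cannot be told apart, for these sums and for each result that follows.

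Each lncRNA was compared between PZH and Control mice by limma on log2(FPKM + 1), fitted to all 1432 lncRNA transcripts with adjustment over all of them. At an adjusted p below 0.05, 14 of the 144 were higher in PZH (9.72%, against 12.2% of all lncRNA transcripts) and 3 were lower (2.08%, against 8.38%). Under the study's criterion, a fold change of at least 2 with an unadjusted p below 0.05, the limma fit gave 0 of 144 (1.61% of all lncRNA transcripts), or 3 with a pseudocount of 0.1, while 34 had an unadjusted p below 0.05 (23.6%, against 35.3% of all lncRNA transcripts), 27 of them higher and 7 lower. The log2 difference was positive in 95 of the 144, and in 759 of all 1432 lncRNA transcripts. Its median was 0.05, against 0.01 over the whole table and over lincRNAs alone. The groups did not overlap in 8 transcripts (5.56%, against 11.9% of all lncRNA transcripts), and all 8 were higher in PZH. Gm38560, counted in both the 14 and the 8, was listed only through its level in PZH mice.

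The split between higher and lower depended on scaling. Over all protein-coding genes the median log2 difference was −0.11, and dividing each mouse by a median-ratio scale factor moved it by 0.11 to −0.00. With that scaling 27 bidirectional promoter lncRNAs were higher in PZH (18.8%, against 18.0% of all lncRNA transcripts) and 0 were lower by limma (against 5.80%), with 3 lower at an unadjusted p below 0.05. All 14 of the transcripts higher without scaling were among the 27. The summed level then differed by 23.0 FPKM between groups.

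The lncRNA with the largest rise on the log2(FPKM + 1) scale, where the added 1 shrinks differences at low FPKM, was BC048644 (ENSMUST00000140928, chr8:121907833-121919690, plus strand, GRCm38), a 2-exon transcript whose start lies head to head with that of Slc7a5, 139 bases away. Slc7a5 encodes the light chain of a transporter that takes large neutral amino acids into cells. BC048644 stood at 0.858, 1.72 and 1.97 FPKM (lowest, median and highest) in PZH mice and at 0.141, 0.425 and 0.727 FPKM in Control mice. The lowest PZH mouse lay above the highest Control mouse, though PZH 1 and PZH 2 lay well under the other PZH mice. The log2 difference was 0.81 (SE 0.15, limma adjusted p 0.00198, 6 of 6 PZH mice above the Control median). Slc7a5 itself changed in the opposite direction, with 0.793, 1.07 and 1.42 FPKM in PZH mice and 2.24, 3.46 and 3.72 FPKM in Control mice. It was low in all 6 PZH mice with no overlap, and its log2 difference was −0.98 (SE 0.12, adjusted p 5.28e-05). The gene and its divergent lncRNA thus moved apart between groups.

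At 9330162012Rik (ENSMUST00000154919, chr13:24937401-24941417, plus strand) lncRNA and partner moved together. Its partner Aldh5a1 encodes succinate semialdehyde dehydrogenase, the mitochondrial enzyme that completes the breakdown of GABA, and the 5′ ends overlap, with starts 260 bases apart and 203 bases of shared exon on opposite strands. The lncRNA was at 1.40, 1.66 and 1.91 FPKM in PZH mice and at 0.352, 0.633 and 1.12 FPKM in Control mice. The groups did not overlap, and the log2 difference was 0.65 (SE 0.11, adjusted p 0.00104, 6 of 6 PZH mice above the Control median). Aldh5a1 was at 7.53, 11.2 and 12.2 FPKM in PZH mice and at 5.75, 7.002 and 8.42 FPKM in Control mice. Only PZH 1 fell within the Control range, and the log2 difference was 0.53 (SE 0.12, adjusted p 0.00263, 6 of 6 PZH mice). Because exons overlap, signal from Aldh5a1 in the lncRNA value, or the reverse, was not tested.

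Mthfd1, the cytosolic enzyme that interconverts folate one-carbon carriers, had the largest rise among the partner genes on the log2(FPKM + 1) scale, though by ratio of group means it was exceeded by Ncapg2, Gins2 and Ropn1l. Its level was 43.3, 53.5 and 57.4 FPKM in PZH mice and 17.97, 26.6 and 31.7 FPKM in Control mice. All PZH mice lay above all Control mice, with a log2 difference of 0.98 (SE 0.12, adjusted p 7.19e-05). Its lncRNA Gm47525 (chr12:76254562-76255334, minus strand), a single exon that starts 36 bases from Mthfd1 and shares 37 bases of exon with it, was scarce at 0.228, 0.295 and 0.430 FPKM in PZH mice and 0.0880, 0.163 and 0.175 FPKM in Control mice. It too showed no overlap, with a log2 difference of 0.19 (SE 0.05, adjusted p 0.0196, 6 of 6 PZH mice), but rested on about 5.75 fragments per mouse. Signal from the far more abundant Mthfd1 in the lncRNA value was not tested.

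Ppp1r3b, which targets protein phosphatase 1 to glycogen in liver, was the partner of Gm45469 (ENSMUST00000210468, chr8:35367750-35376392, minus strand), whose 5′ end overlaps it. Ppp1r3b was at 54.3, 84.4 and 101 FPKM in PZH mice and at 21.4, 44.7 and 79.3 FPKM in Control mice. PZH 3, the lowest of its group, lay below the higher Control mice, and the log2 difference was 0.88 (SE 0.28, adjusted p 0.0220, 6 of 6 PZH mice above the Control median). The single Ppp1r3b transcript with the nearest start differed by 0.45 with an adjusted p of 0.286, so the change of the gene sum did not pass the threshold at that start. Gm45469 was at 1.10, 2.57 and 3.86 FPKM in PZH mice and 0.863, 1.29 and 2.35 FPKM in Control mice. The groups overlapped through PZH 3, and the log2 difference of 0.51 had an adjusted p of 0.0904 (5 of 6 PZH mice), which fell to 0.0184 without PZH 3.

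Enpp2, which makes lysophosphatidic acid, was at 19.5, 26.4 and 36.2 FPKM in PZH mice and at 7.47, 15.6 and 22.5 FPKM in Control mice. The groups overlapped at the edge, with a log2 difference of 0.84 (SE 0.23, adjusted p 0.00939, 6 of 6 PZH mice above the Control median). Neither Gm26684 transcript listed at its promoter passed the threshold, with log2 differences of 0.17 (ENSMUST00000228229, adjusted p 0.318) and −0.03 (ENSMUST00000181704, adjusted p 0.815).

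The 1010001N08Rik transcript ENSMUST00000231895 starts 466 bases from Gata6 and shares 56 bases of exon with it. It was at 0.689, 0.738 and 0.846 FPKM in PZH mice and 0.177, 0.409 and 0.50 FPKM in Control mice. The groups were well apart and the log2 difference was 0.34 (SE 0.06, adjusted p 0.00144, 6 of 6 PZH mice). A second transcript of the gene, ENSMUST00000181316, rose by 0.31 (adjusted p 0.0171), also without overlap. ENSMUST00000232314, the transcript just outside the distance limit, was at 0.303, 0.378 and 0.479 FPKM in PZH mice and 0.212, 0.254 and 0.359 FPKM in Control mice. It overlapped between groups and did not pass, with a log2 difference of 0.12 (adjusted p 0.0966, 6 of 6). Gata6 fell, from 4.70, 5.13 and 5.69 FPKM in Control mice to 2.76, 3.52 and 3.78 FPKM in PZH mice, a log2 difference of −0.49 (SE 0.07, adjusted p 0.000165, 6 of 6). The same opposed pattern appeared at Yap1, the coactivator that the Hippo pathway restrains. Gm45494, 234 bases from it, was at 0.354, 0.541 and 0.617 FPKM in PZH mice and 0.152, 0.252 and 0.427 FPKM in Control mice, a log2 difference of 0.27 (adjusted p 0.00975, 6 of 6) with overlap. Yap1 was at 10.2, 15.1 and 17.97 FPKM in PZH mice against 24.2, 24.4 and 26.5 FPKM in Control mice, a log2 difference of −0.72 (adjusted p 0.000164, 6 of 6) with no overlap.

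Of the other lncRNAs higher in PZH, B230217O12Rik, which shares 96 bases of exon with Fam160b1, was at 0.619, 0.962 and 1.497 FPKM in PZH mice and 0.360, 0.479 and 0.631 FPKM in Control mice. Only the lowest PZH mouse fell within the Control range, and the log2 difference was 0.39 (SE 0.09, adjusted p 0.00924, 6 of 6). Fam160b1 differed by 0.09 (adjusted p 0.293), or by 0.15 with an adjusted p of 0.0411 without PZH 1. The 1110020A21Rik transcript ENSMUST00000181147, which starts 969 bases from the protein phosphatase gene Ppm1b, was at 0.689, 1.07 and 1.42 FPKM in PZH mice and 0.349, 0.588 and 0.882 FPKM in Control mice. It overlapped between groups and rose by 0.38 (SE 0.10, adjusted p 0.0174, 6 of 6). Another listed transcript of the gene, ENSMUST00000234932, differed by 0.22 and did not pass (adjusted p 0.229, 4 of 6). Ppm1b rose by 0.18 (adjusted p 0.0406, 6 of 6), which no longer passed when any of PZH 3, 4, 5 or 6 or Control 1, 4, 5 or 6 was left out (0.0107 to 0.0867 over all 12 omissions). The 2810030D12Rik transcript ENSMUST00000190461, 132 bases from Grtp1, was at 0.848, 1.39 and 2.07 FPKM in PZH mice and 0.626, 0.855 and 1.21 FPKM in Control mice. Its rise of 0.36 (SE 0.11, adjusted p 0.0420, 5 of 6) did not pass when any of PZH 2, 3, 4 or 6 or Control 1, 4, 5 or 6 was left out (0.0102 to 0.0916 over all 12). Grtp1 was flat, at −0.03 as deposited and 0.13 with median-ratio scaling.

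The remaining rises were of 0.17 to 0.31. Cep83os, 78 bases from the centriole gene Cep83, was at 0.461, 0.485 and 0.532 FPKM in PZH mice and 0.200, 0.245 and 0.444 FPKM in Control mice, a narrow PZH range above every Control mouse. It rose by 0.23 (adjusted p 0.00674, 6 of 6), whereas Cep83 fell by 0.59 (adjusted p 0.000658, 6 of 6) with no overlap. Gm48226, whose exon overlaps that of the gephyrin gene Gphn, rose by 0.29 (adjusted p 0.0142, 6 of 6), and Gphn rose by 0.51 (adjusted p 0.00103, 6 of 6). Gm27011, which shares 252 bases of exon with Banp, rose by 0.31 (adjusted p 0.00641, 6 of 6), with Banp at −0.08 (adjusted p 0.499). The 1500026H17Rik transcript at Scyl2 rose by 0.18 (adjusted p 0.0174, 6 of 6), with Scyl2 at −0.16 (adjusted p 0.103). Gm38560, the only transcript of the 14 without a partner within 2 kb, rose by 0.17 (adjusted p 0.0233, 6 of 6) and rested on about 2.34 fragments per mouse.

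The largest of the 3 falls on the log2(FPKM + 1) scale was that of the B230354K17Rik transcript ENSMUST00000233673 (chr17:45433865-45438297, plus strand), 128 bases from Cdc5l, a core component of the spliceosome. It was at 1.29, 1.58 and 1.93 FPKM in PZH mice and at 1.89, 2.17 and 2.31 FPKM in Control mice. The groups touched only at the highest PZH and the lowest Control mouse, and the log2 difference was −0.29 (SE 0.06, adjusted p 0.00713, 6 of 6 PZH mice below the Control median). Of the other listed transcripts of the gene, ENSMUST00000181149, at a mean of 1.14 FPKM, differed by 0.14 (adjusted p 0.643), and ENSMUST00000233940, at 1.22 FPKM, by −0.46 (adjusted p 0.315), and the division of reads among them was not tested. Cdc5l was at 4.59, 4.98 and 5.41 FPKM in PZH mice and 4.88, 5.64 and 6.66 FPKM in Control mice. It overlapped and differed by −0.17 (adjusted p 0.0857, 6 of 6), or by −0.20 with an adjusted p of 0.0435 without Control 6. A130014A01Rik, 100 bases from the palmitoyltransferase gene Zdhhc7, was at 1.28, 1.46 and 1.65 FPKM in PZH mice and 1.64, 1.72 and 1.88 FPKM in Control mice. The overlap was slight, and the log2 difference was −0.15 (SE 0.05, adjusted p 0.0338, 6 of 6).

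The fall of A130014A01Rik did not pass when any of PZH 1, 3, 5 or 6 or Control 1, 2, 3, 5 or 6 was left out (adjusted p 0.0191 to 0.0744 over all 12 omissions), and Zdhhc7, at −0.26 (adjusted p 0.0438, 6 of 6), did not pass without PZH 4 or any of Control 2 to 6 (0.0376 to 0.0866). F730043M19Rik (ENSMUST00000148740), 107 bases from Atxn7l1, was at 0.0862, 0.261 and 0.364 FPKM in PZH mice and 0.239, 0.497 and 0.589 FPKM in Control mice. It overlapped between groups, and its log2 difference was −0.25 (SE 0.07, adjusted p 0.0272, 6 of 6). That did not pass without PZH 1 or 3 or Control 1, 3, 4 or 6 (0.00717 to 0.0598). Atxn7l1 differed by 0.21 (adjusted p 0.174), or by 0.32 with an adjusted p of 0.00932 without PZH 1. With median-ratio scaling the falls kept their sign at −0.17, −0.04 and −0.20 for B230354K17Rik, A130014A01Rik and F730043M19Rik, and none passed.

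Of the 6 most abundant bidirectional promoter lncRNAs none passed the threshold. The Ndufb1-ps transcript ENSMUST00000221422, which shares 147 bases of exon with Cpsf2, was at 6.04, 6.70 and 8.64 FPKM in PZH mice and 3.96, 6.14 and 7.56 FPKM in Control mice. The ranges largely coincided, with a log2 difference of 0.19 (adjusted p 0.300, 5 of 6), or 0.09 without Control 6. A shorter transcript of the same gene, ENSMUST00000221191, starts head to head with Cpsf2 at 61 bases and was at 1.69, 2.56 and 3.81 FPKM in PZH mice and 1.02, 1.64 and 2.05 FPKM in Control mice. All PZH mice lay above the Control median, and the log2 difference of 0.44 (SE 0.15) had an adjusted p of 0.0516. It was 0.0263 without PZH 2, 0.0348 without PZH 4 and 0.0399 without Control 2. Cpsf2, a subunit of the complex that recognises the polyadenylation signal, fell from 5.86, 6.92 and 7.41 FPKM in Control mice to 4.35, 4.92 and 5.41 FPKM in PZH mice, by 0.40 in log2 (SE 0.07, adjusted p 0.000494, 6 of 6) with no overlap.

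The lncRNA 4632427E13Rik (ENSMUST00000098305) starts 135 bases from Rab30, which encodes a GTPase of the Golgi. It was at 1.84, 5.55 and 7.18 FPKM in PZH mice and 6.23, 6.60 and 7.12 FPKM in Control mice, where the wide PZH range came from PZH 5 alone at the low end. The log2 difference was −0.35 (SE 0.20, adjusted p 0.237, 5 of 6), or −0.14 without PZH 5. The other listed transcript of the gene, ENSMUST00000182578, which starts at the same distance, was at 2.52 FPKM in PZH 5 and at 0 to 0.205 FPKM in the other mice, and the division of reads between them was not tested. Rab30 itself, less abundant at a median of 1.73 FPKM in PZH and 2.23 FPKM in Control mice, fell by 0.31 (adjusted p 0.0434, 5 of 6), which did not pass when any of PZH 1 to 5 or Control 4 to 6 was left out (0.0246 to 0.0947 over all 12). Gm47484, which shares 225 bases of exon with the zinc-finger gene Zfp410, was at 1.43, 3.17 and 3.57 FPKM in PZH mice and 2.24, 2.52 and 2.84 FPKM in Control mice, with a log2 difference of 0.07 (adjusted p 0.774, 4 of 6), or 0.01 without PZH 5 and 0.19 without PZH 1. Zfp410 differed by −0.55 (adjusted p 0.0526, 5 of 6) as a gene sum and by 0.03 (adjusted p 0.903) at its transcript with the nearest start, and the gene sum passed without PZH 6 or Control 3, 4 or 5 (0.0342 to 0.106 over all 12). The lncRNA 2810013P06Rik, at the chromatin regulator Ankrd11, differed by 0.19 (adjusted p 0.228, 4 of 6) and overlapped between groups. Ankrd11 fell by 0.33 (adjusted p 0.0383, 5 of 6), which did not pass without PZH 1, 3, 4 or 6 or Control 1, 4, 5 or 6 (0.0114 to 0.0810 over all 12).

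**Figure D1:**
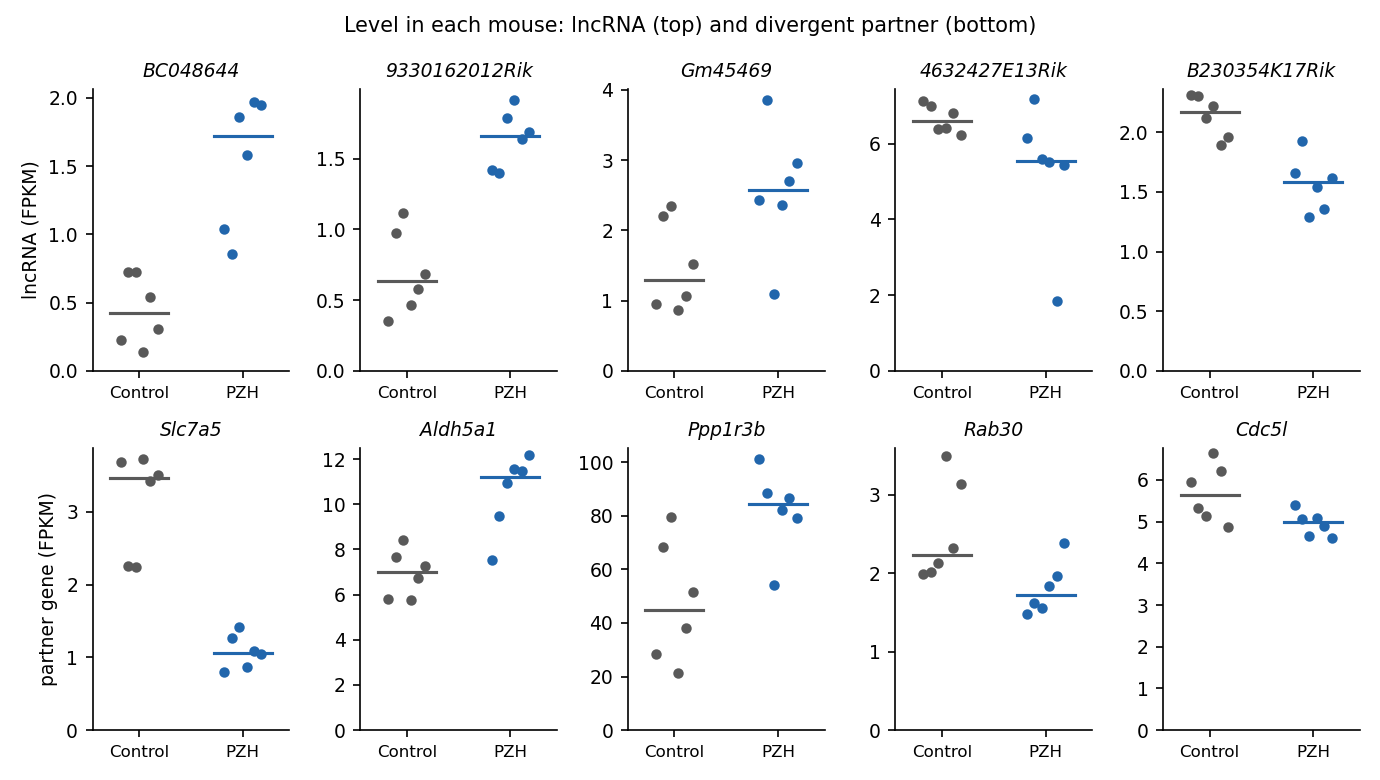
Level (FPKM, axes from 0) of 5 bidirectional promoter lncRNAs (top) and of their partner genes (bottom) in each of 6 PZH and 6 Control mice, with each point a mouse and each line a group median. BC048644 lies at 0.858 FPKM or more in PZH mice and at 0.727 FPKM or less in Control mice, while its partner Slc7a5 lies at 1.42 FPKM or less in PZH mice and at 2.24 FPKM or more in Control mice.

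Partner genes were compared by the same test on summed FPKM per gene, fitted to all 14188 genes. Of the 108 listed partners, 14 were higher in PZH (13.0%, against 12.7% of all genes) and 47 were lower (43.5%, against 32.1%). At the partner transcript with the nearest start the counts were 9 higher and 24 lower (against 5.73% and 14.0% of all protein-coding transcripts). The groups did not overlap in 33 (against 24.3% of all genes). The median log2 difference of the partners was −0.21, against −0.11 over all genes. Under the study's criterion 2 partners changed (4.02% of all genes), Actg1 and Ddx21, both lower, but 11 did with a pseudocount of 0.1, 4 with median-ratio scaling, and 5 without Control 2 or Control 3. With median-ratio scaling 21 partners were higher (19.4%, against 19.8% of all genes) and 29 lower (26.9%, against 19.3%), and their median was −0.04 against −0.00 for all genes.

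Actg1, which encodes cytoplasmic gamma-actin, changed most of all partners on the log2(FPKM + 1) scale, while by ratio of group means the scarcer Shc2 fell slightly more. It was at 39.4, 50.1 and 58.0 FPKM in PZH mice and at 139, 252 and 305 FPKM in Control mice. Even the highest PZH mouse lay far under the lowest Control mouse, Control 2, and the log2 difference was −2.17 (SE 0.19, adjusted p 1.16e-05). Its lncRNA 0610009L18Rik, 136 bases away, was at 0.182, 0.351 and 0.607 FPKM in PZH mice and 0.368, 0.457 and 0.850 FPKM in Control mice. The groups overlapped and the log2 difference was −0.14 (SE 0.09, adjusted p 0.277, 4 of 6 PZH mice below the Control median), so a change of this size in the gene came with none that passed in the lncRNA.

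Ddx21, an RNA helicase of the nucleolus that acts in ribosomal RNA synthesis, was at 6.46, 7.08 and 9.73 FPKM in PZH mice and at 13.7, 17.6 and 19.7 FPKM in Control mice. There was no overlap, and the log2 difference was −1.08 (SE 0.10, adjusted p 1.74e-05). Gm47257, 69 bases away, was among the scarcest transcripts, at 0.0171, 0.0488 and 0.130 FPKM in PZH mice and 0.0210, 0.146 and 0.202 FPKM in Control mice. All 6 PZH mice lay below the Control median, and the log2 difference of −0.10 had an adjusted p of 0.179 on about 5.50 fragments per mouse.

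Further partners that fell with no overlap included the splicing regulator Ptbp1 (−0.91, adjusted p 0.000916), the YAP-binding transcription factor Tead1 (−0.90, adjusted p 0.00137), the protein O-fucosyltransferase Pofut2 (−0.87, adjusted p 2.75e-05) and Spty2d1 (−0.80, adjusted p 9.38e-05). Ncapg2, a condensin subunit, rose by 0.78 (adjusted p 0.000227) with no overlap, and Ropn1l rose by 0.78 (adjusted p 0.00296). In each of these 6 genes, 6 of 6 PZH mice lay beyond the Control median. None of their lncRNAs passed the threshold. Btf3, the partner at the edge of the distance limit, fell by 0.44 (adjusted p 0.0133, 5 of 6), and Gm9828 differed by −0.11 (adjusted p 0.422, 4 of 6).

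Set side by side in the 137 pairs, the calls of lncRNA and partner showed no single pattern. The 2 tests of a pair used the same 12 libraries, and whether their directions go together was not tested. Of 13 pairs with a higher lncRNA, the partner was higher in 4, lower in 5 (4 genes, since Gata6 had 2 of these pairs) and below the threshold in 4, where 12.7% of all genes were higher and 32.1% lower. Of 3 pairs with a lower lncRNA, the partner was lower in 1 and below the threshold in 2. In the other 121 pairs, where the lncRNA did not pass, the partner was higher in 12 (11 genes), lower in 57 (42 genes) and below the threshold in 52 (44 genes).

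**Figure D2:**
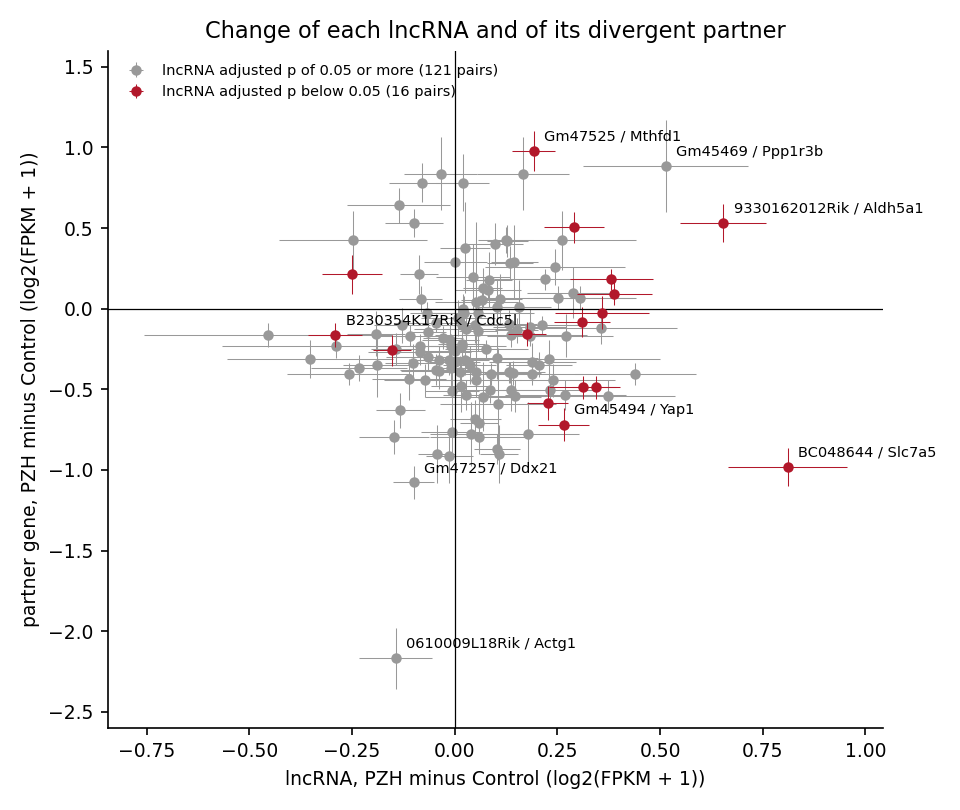
Log2 difference (PZH minus Control, log2(FPKM + 1)) of each lncRNA on the horizontal axis and of its divergent partner on the vertical axis, for 137 pairs, with bars of 1 SE. Red points are the 16 pairs whose lncRNA had an adjusted p below 0.05; BC048644 with Slc7a5 lies at 0.81 and −0.98, and 9330162012Rik with Aldh5a1 at 0.65 and 0.53.

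Whether lncRNA and partner vary together from mouse to mouse was asked within groups, so that the treatment difference did not enter. For each of the 137 pairs Pearson's r was taken over the 12 mice after removing the group means, with an exact two-sided permutation test of mice within groups. The median r was 0.08, against 0.02 over the combinations of each lncRNA with every gene. It was 0.16 within PZH mice alone and 0.09 within Control mice alone. An r of at least 0.5 was found in 19 pairs (13.9%, against 7.48% of all combinations), and an r of −0.5 or less in 7 (5.11%, against 5.96%). The 193 lincRNA transcripts with a partner within 2 kb by the same rule gave 26 pairs with an r of at least 0.5 (13.5%) and a median r of 0.13. A difference between the types of lncRNA was not tested. Values ran from −0.81 to 0.82. Unadjusted exact permutation p-values were below 0.05 in 15 pairs, 12 positive and 3 negative, and 0 passed after Benjamini-Hochberg adjustment over the 137, where the lowest was 0.0596. Spearman's rho gave 0 as well, with a lowest adjusted exact permutation p of 0.391.

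Pairs were also counted by geometry and by level, and no difference between kinds of pair was tested. In 84 head-to-head pairs the median r was 0.02 and 9 (10.7%) reached 0.5. In 53 pairs with overlapping 5′ ends the median was 0.18 and 10 (18.9%) reached it. With exonic overlap it was 0.16 in 42 pairs, with 8 (19.0%) at 0.5 or more, and without it 0.03 in 95 pairs, with 11 (11.6%). Where both lncRNA and partner had a mean of at least 1 FPKM, 6 of 18 pairs (33.3%) reached 0.5, while of the 119 pairs with a lncRNA under 1 FPKM, 13 (10.9%) did.

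**Figure D3:**
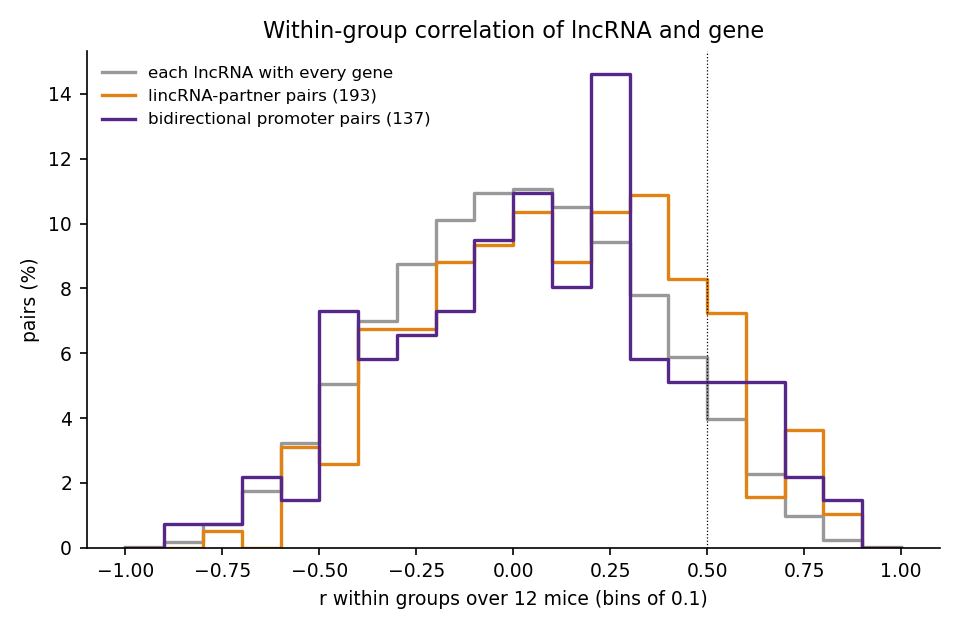
Share of pairs (%) by within-group Pearson r over 12 mice in bins of 0.1, for the 137 bidirectional promoter pairs, the 193 lincRNA pairs and the combinations of each bidirectional promoter lncRNA with every gene. To the right of the dotted line at 0.5 lie 13.9% of the bidirectional promoter pairs, 13.5% of the lincRNA pairs and 7.48% of the combinations with every gene.

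The highest r belonged to Gm45469 with Ppp1r3b, at 0.824 over both groups (exact permutation p 0.000870, adjusted 0.0596), with a rho of 0.714 (exact permutation p 0.0202, adjusted 0.391). Among all genes, Ppp1r3b lay at the 99.9th percentile of r with Gm45469. Within Control mice r was 0.966 (exact permutation p 0.00417, adjusted 0.217 over 273 tests within single groups), rho was 1 (exact permutation p 0.00278, adjusted 0.379), and r was 0.939 without the 2 mice farthest from the median of Gm45469. Control 2 and Control 3 were highest and Control 1 and Control 4 lowest for both transcripts. Within PZH mice r was 0.782 (exact permutation p 0.119, adjusted 0.723) and rho 0.429 (exact permutation p 0.419, adjusted 0.893). Without the 2 farthest mice r became −0.481, so the r of the PZH group depended on those mice. Here and in the pairs below, few mice and a narrow lncRNA range remain after that removal. Such an r can swing widely, so it cannot show whether a relation is absent. Leaving PZH 1 out gave a pooled r of 0.84 with an adjusted exact permutation p of 0.0127, the only omission with which any pair passed.

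9330162012Rik with Aldh5a1 followed, with a pooled r of 0.801 (exact permutation p 0.000527, adjusted 0.0596) and a rho of 0.800 (exact permutation p 0.00624, adjusted 0.391). Aldh5a1 lay at the 99.0th percentile of all genes in r with this lncRNA. Within Control mice r was 0.964 (exact permutation p 0.00556, adjusted 0.217), rho 0.943 (exact permutation p 0.0167, adjusted 0.569), and r was 0.928 without the 2 farthest mice. Here too Control 2 and Control 3 were the highest of the group. Ppp1r3b, Aldh5a1 and Enpp2 ranked the Control mice in the same order, from Control 4 as the lowest through Control 1, 5, 6 and 2 to Control 3. The high r of their pairs therefore shares 1 order of the Control mice, and these pairs are not independent cases. Within PZH mice r was 0.765 (exact permutation p 0.0736, adjusted 0.703), rho 0.657 (exact permutation p 0.175, adjusted 0.893), and r became −0.290 without the 2 farthest mice, on which it therefore rested.

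The scarcer Gm26684 transcripts had a pooled r with Enpp2 of 0.748 (ENSMUST00000228229, exact permutation p 0.0210, adjusted 0.375) and 0.721 (ENSMUST00000181704, exact permutation p 0.0249, adjusted 0.375). For the scarce lncRNAs of Actg1 and Ddx21 the pooled r was also positive. It was 0.694 for 0610009L18Rik with Actg1 (exact permutation p 0.0130, adjusted 0.367). Gm47257 with Ddx21 had 0.599 (exact permutation p 0.0471, adjusted 0.416). Next among pairs with both means at 1 FPKM or more was Gm36371, which starts 519 bases from the zinc-finger gene Zfp787. Their pooled r was 0.728 (exact permutation p 0.0134, adjusted 0.367), with a rho of 0.657 (exact permutation p 0.0371, adjusted 0.391). Within Control mice r was 0.714 (exact permutation p 0.107, adjusted 0.723) and rho 0.771 (exact permutation p 0.103, adjusted 0.779), and r held at 0.745 without the 2 farthest mice. Within PZH mice r was 0.743 (exact permutation p 0.104, adjusted 0.723) and rho 0.543 (exact permutation p 0.297, adjusted 0.893), and r became −0.229, so that the PZH value rested on those mice. The group difference was in opposite directions, 0.14 for Gm36371 (adjusted p 0.169, 5 of 6) and −0.40 for Zfp787 (adjusted p 0.000948, 6 of 6).

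Gm16675 with Irf2, a transcription factor of the interferon response, had a pooled r of 0.633 (exact permutation p 0.0378, adjusted 0.382) and a rho of 0.514 (exact permutation p 0.118, adjusted 0.672). Within PZH mice r was 0.705 (exact permutation p 0.126, adjusted 0.723) and rho 0.486 (exact permutation p 0.356, adjusted 0.893), and within Control mice r was 0.570 (exact permutation p 0.232, adjusted 0.808) and rho 0.543 (exact permutation p 0.297, adjusted 0.893). Without the 2 farthest mice of each group r became −0.871 and −0.147, so both values depended on them. Gm16675 did not differ between groups (0.00, adjusted p 0.994), and Irf2 differed by 0.29 (adjusted p 0.131, 5 of 6), or by 0.40 with an adjusted p of 0.0183 without PZH 1.

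Of pairs with both at 1 FPKM or more, the lowest r was that of the Ndufb1-ps transcript ENSMUST00000221191 with Cpsf2, at −0.676 (exact permutation p 0.0207, adjusted 0.375) with a rho of −0.686 (exact permutation p 0.0279, adjusted 0.391). Within PZH mice r was −0.891 (exact permutation p 0.0222, adjusted 0.467), rho was −0.829 (exact permutation p 0.0583, adjusted 0.664), and r was −0.618 without the 2 farthest mice. Within Control mice r was −0.476 (exact permutation p 0.329, adjusted 0.848), rho was −0.543 (exact permutation p 0.297, adjusted 0.893), and r became 0.225, so there it rested on those mice.

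Gm17251 with Rab11b, a GTPase of recycling endosomes with which it shares 329 bases of exon, had a pooled r of −0.647 (exact permutation p 0.0577, adjusted 0.416) and a rho of −0.229 (exact permutation p 0.517, adjusted 0.932). The value came from Control mice, with r at −0.989 (exact permutation p 0.00556, adjusted 0.217), rho at −0.886 (exact permutation p 0.0333, adjusted 0.569) and r at −0.968 without the 2 farthest. In PZH mice r was 0.121 (exact permutation p 0.840, adjusted 0.968), rho 0.429 (exact permutation p 0.419, adjusted 0.893), and r without the 2 farthest 0.487. In Control 2, where Gm17251 was lowest at 0.611 FPKM, Rab11b was highest at 15.4 FPKM, and without Control 2 the pooled r was −0.18. Neither differed between groups at the threshold, with Gm17251 at 0.11 (adjusted p 0.643, 3 of 6) and Rab11b at −0.59 (adjusted p 0.189, 5 of 6), or −0.27 without Control 2.

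BC048644 with Slc7a5, a pair chosen after its values were seen, had no correlation that passed after adjustment. Over both groups r was −0.428 (exact permutation p 0.172, adjusted 0.636) and rho −0.400 (exact permutation p 0.236, adjusted 0.769). Within Control mice r was −0.892 (exact permutation p 0.00278, adjusted 0.217), rho −0.943 (exact permutation p 0.0167, adjusted 0.569) and r −0.853 without the 2 farthest mice. Within PZH mice r was 0.177 (exact permutation p 0.731, adjusted 0.931) and rho 0.143 (exact permutation p 0.803, adjusted 0.983), with r at 0.516 without the 2 farthest. The difference between the groups' correlations was not tested.

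A list of proteins that act on transcripts near promoters, in pausing, U1 binding, cleavage, polyadenylation or decay, held 58 listed genes. At an adjusted p below 0.05, 0 of them were higher by limma (against 12.7% of all genes) and 35 were lower (60.3%, against 32.1%), with 23 not passing and a median log2 difference of −0.34 against −0.11 for all genes. With median-ratio scaling 1 was higher (against 19.8% of all genes) and 17 were lower (29.3%, against 19.3%), and the median was −0.17. Of 18 genes of the RNA exosome and its nuclear adaptors, 10 were lower, a count that, like those of the lists below, reads beside the 32.1% of all genes that were lower. Exosc1, a subunit of the exosome core, was at 4.50, 4.90 and 6.01 FPKM in PZH mice and 7.75, 8.26 and 8.76 FPKM in Control mice. The groups did not overlap, and it fell by 0.62 (SE 0.07, adjusted p 4.06e-05, 6 of 6). Zfc3h1, of the poly(A) tail exosome targeting connection, was the most abundant gene of that list at a mean of 11.3 FPKM and fell by 0.57 (adjusted p 0.000646, 6 of 6). Going the other way in that list, C1d differed by 0.59 without passing (limma adjusted p 0.0519, 5 of 6). Exosc7, Exosc10 and Zcchc8 had smaller positive differences of 0.12, 0.12 and 0.05 that did not pass.

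Integrator, which cleaves nascent transcripts near promoters, had 11 of 14 genes lower, with its endonuclease Ints11 at −0.46 (adjusted p 0.000259, 6 of 6) and Ints5 at −0.65 (adjusted p 0.00272, 6 of 6). Ints4 was its most abundant gene, at a mean of 8.89 FPKM, and did not pass. Of 6 genes of NELF and DSIF, which hold polymerase in its promoter-proximal pause, 4 were lower, with Nelfb at −0.59 (adjusted p 0.000239, 6 of 6) and Supt4a the most abundant at 15.3 FPKM. Of 3 U1 snRNP proteins only Snrpa, the most abundant at 16.7 FPKM, was lower, by 0.64 (adjusted p 7.86e-05, 6 of 6). Of 17 cleavage and polyadenylation factors 9 were lower, among them Cpsf2, which is itself a divergent partner, and Clp1 (−0.96, adjusted p 0.0145, 6 of 6), with Pabpn1 the most abundant at 29.6 FPKM. The summed level of each of the 5 lists, as deposited, was lower in every PZH mouse than in every Control mouse. Some gaps were narrow, as for NELF and DSIF, with at most 45.7 FPKM in PZH and at least 47.8 FPKM in Control mice. Median-ratio scale factors were 0.868 to 0.998 in PZH and 1.02 to 1.10 in Control mice, so dividing by them narrows these gaps. Whether the separation holds with scaling was not tested, nor was any part of these genes in the levels of the lncRNAs.

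Markers of the cell types of the tissue were compared in the same way, and their part in the results above was not tested. The counts read beside the 12.7% of all genes that were higher and the 32.1% that were lower. Of the 6 hepatocyte markers 3 were higher in PZH and 1 was lower, with the cytochrome Cyp2e1 at a log2 difference of 2.24 (adjusted p 1.74e-05, 6 of 6) and the transcription factor Hnf4a at −0.30 (adjusted p 0.00937, 6 of 6). Of 8 markers of stellate cells and myofibroblasts 1 was higher (Col3a1) and 2 were lower (Acta2 and Des), and their sum was 284 to 366 FPKM in PZH and 220 to 342 FPKM in Control mice, with Dcn the most abundant. Of 6 macrophage markers 2 were higher (Clec4f and Csf1r) and 1 was lower (Cd68), with sums of 327 to 514 and 301 to 419 FPKM and Lyz2 the most abundant. Of 6 endothelial markers 2 were lower (Pecam1 and Lyve1), with sums of 77.1 to 99.9 and 88.2 to 101 FPKM and Clec4g the most abundant.

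Of 5 cholangiocyte markers 1 was lower, Sox9, at −1.64 (6 of 6), and the sums were 66.9 to 133 FPKM in PZH and 96.9 to 161 FPKM in Control mice, with Spp1 the most abundant. None of 6 lymphocyte markers passed by limma, and 0 had an unadjusted p below 0.05, with sums of 2.43 to 4.71 and 2.47 to 4.47 FPKM and Cd79a the most abundant. Of 4 neutrophil markers 1 was lower (Csf3r), with sums of 13.1 to 139 and 18.3 to 62.4 FPKM and S100a8 the most abundant. All 4 proliferation markers were higher, with Mki67 at 1.29 (adjusted p 1.56e-05, 6 of 6) and Top2a, the most abundant, at 1.20 (adjusted p 0.000134, 6 of 6). Their sum was 5.32, 8.13 and 13.1 FPKM in PZH mice and 1.43, 2.01 and 2.96 FPKM in Control mice, with no overlap. No marker of any list was at 0 in all mice.

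The promoter sequences of partner genes are given by RefSeq for GRCm38.p6 as windows of 300 bases, from 250 before to 50 after the start. A window starting within 250 bases of the GENCODE start was found for 73 of the 108 partners (67.6%) and for 9186 of the 14188 genes. A comparison of base composition or motifs between partners and other genes was void, since fewer than 80% of the partners had a window. No window was matched for Slc7a5, Ppp1r3b, Enpp2, Gphn, Rab30 or Fam160b1. Windows are shown for 5 partners: Aldh5a1 and Mthfd1, whose lncRNAs rose with them, Actg1 and Ddx21, the partners with the largest falls on the log2(FPKM + 1) scale, and Cpsf2, whose r was lowest among pairs with both at 1 FPKM or more. They run 5′ to 3′ along the strand of the partner, and position 251 is the RefSeq start. For all but Aldh5a1 that start differs from the GENCODE start used for the distances above, and the GENCODE start of Mthfd1 lies beyond its window. Capitals mark matches, on either strand, to any of 8 motifs: the GC box GGGCGG, held by 61.6% of the windows of all genes, the CCAAT box CCAAT (39.6%), the TATA box TATAAA (7.88%), the ETS element CCGGAAG (17.8%), the NRF1 element GCGCATGC (5.42%), the cyclic AMP response element TGACGTCA (3.27%), the TCGCGAGA element (2.20%) and the YY1 element AAGATGGC (4.59%).
Aldh5a1 (chr13:24937612-24937911, minus strand): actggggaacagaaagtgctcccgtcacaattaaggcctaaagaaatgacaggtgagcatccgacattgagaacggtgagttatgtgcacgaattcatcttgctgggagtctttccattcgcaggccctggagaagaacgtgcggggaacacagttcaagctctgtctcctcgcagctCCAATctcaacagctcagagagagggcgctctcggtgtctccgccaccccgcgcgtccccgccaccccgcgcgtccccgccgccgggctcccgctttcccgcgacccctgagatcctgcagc
Mthfd1 (chr12:76254982-76255281, plus strand): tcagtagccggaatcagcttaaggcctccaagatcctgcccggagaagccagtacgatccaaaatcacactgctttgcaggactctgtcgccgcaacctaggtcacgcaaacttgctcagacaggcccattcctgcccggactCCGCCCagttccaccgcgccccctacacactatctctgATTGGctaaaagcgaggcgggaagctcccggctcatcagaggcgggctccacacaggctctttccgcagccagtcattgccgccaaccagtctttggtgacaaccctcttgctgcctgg
Actg1 (chr11:120348446-120348745, minus strand): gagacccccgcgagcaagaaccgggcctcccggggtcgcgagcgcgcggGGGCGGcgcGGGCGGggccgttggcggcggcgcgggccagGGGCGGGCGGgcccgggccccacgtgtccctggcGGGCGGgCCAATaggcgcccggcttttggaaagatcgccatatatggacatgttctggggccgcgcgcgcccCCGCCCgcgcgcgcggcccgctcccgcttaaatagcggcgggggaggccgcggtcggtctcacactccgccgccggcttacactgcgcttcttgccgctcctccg
Ddx21 (chr10:62602249-62602548, minus strand): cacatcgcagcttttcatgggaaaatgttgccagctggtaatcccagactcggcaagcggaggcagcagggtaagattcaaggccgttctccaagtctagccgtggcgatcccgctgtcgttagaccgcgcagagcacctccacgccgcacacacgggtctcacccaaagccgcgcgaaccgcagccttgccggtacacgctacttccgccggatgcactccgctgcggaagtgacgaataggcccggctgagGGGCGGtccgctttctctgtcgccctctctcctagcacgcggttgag
Cpsf2 (chr12:101975724-101976023, plus strand): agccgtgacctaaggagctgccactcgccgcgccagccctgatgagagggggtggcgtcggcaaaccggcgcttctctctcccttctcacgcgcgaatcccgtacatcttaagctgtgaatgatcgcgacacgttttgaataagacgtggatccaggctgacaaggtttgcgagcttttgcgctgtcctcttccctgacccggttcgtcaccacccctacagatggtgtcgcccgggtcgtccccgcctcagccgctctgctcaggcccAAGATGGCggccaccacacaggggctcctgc

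The Aldh5a1 window holds 1 CCAAT box and 24 CpG dinucleotides, and its lncRNA starts beyond the end of the window, inside the gene. In the window of Mthfd1 there are 1 GC box and 1 CCAAT box, both on the opposite strand, and 16 CpG, and Gm47525 again starts beyond it. The Actg1 window is the richest in CpG of those shown, with 50, a GC content of 77.3%, 6 GC boxes of which some overlap, and 1 CCAAT box, and 0610009L18Rik starts on the opposite strand at position 68. Ddx21 has 1 GC box and 30 CpG, with the start of Gm47257 at position 199. Cpsf2 has 1 YY1 element downstream of position 251 and 26 CpG, with the start of the Ndufb1-ps transcript ENSMUST00000221191 at position 204. A match to a motif is a description of the sequence, and binding was not measured.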

How the data were processed

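The authors deposited FPKM values of lncRNA and protein-coding transcripts, aligned with HISAT2 2.1.0 to GRCm38 and quantified with StringTie 1.3.5 on the Ensembl release 95 annotation, and these were used as deposited. Transcripts were matched to GENCODE M21 by transcript identifier. FPKM of protein-coding transcripts was summed per gene. limma 3.58.1 in R 4.3.3 was fitted to log2(FPKM + 1) of all lncRNA transcripts and, separately, of all genes, with no covariate, two-sided, with Benjamini-Hochberg adjustment. A positive difference is higher in PZH. Correlations used Python 3.11.15 with numpy 2.4.6 and all 720 orders of the mice within each group.

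Members, partners and the lists of genes (exosome and nuclear adaptors, Integrator, NELF and DSIF, U1 snRNP, cleavage and polyadenylation; markers of hepatocytes, stellate cells and myofibroblasts, macrophages, endothelium, cholangiocytes, lymphocytes, neutrophils and proliferation) were chosen with earlier results of these data known. Skiv2l2, Papd5, Cpsf3l, Asun and Vwa9 were not listed under these symbols. They are older names of Mtrex, Tent4b, Ints11, Ints13 and Ints14, which were listed and counted, so these genes are not missing. Mphosph6 replaced Mpp6, a symbol of another gene entered for it by mistake, after the values were seen. Described, most but not all with full values, were the 6 largest rises and 6 largest falls (3 found) with an adjusted p below 0.05, the 6 most abundant lncRNAs, the 4 highest and 2 lowest r among pairs with both means at 1 FPKM or more, the partners of all these, the 3 partners with the largest rise and fall, and the transcripts nearest the distance limit. Other genes named, among them Gm47525, Gm45494, Cep83os, Gm26684, 0610009L18Rik, Gm47257 and the pair of BC048644 in the correlations, were chosen after their values were seen. Sequences are from RefSeq. Proteins measured by the study were not analysed here, and 1 abundant lncRNA and its partner are not reported here.

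Alternatives tried were a pseudocount of 0.1, a minimum mean of 1 FPKM, median-ratio scaling, a mean-variance trend, a replicate block, sums per lncRNA gene, the partner transcript with the nearest start, starts within 1 kb, Spearman's rho, and leaving out each mouse.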

Additional observations from a re-analysis of the deposited data

Results flagged for a closer look

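In 7 of 118 groups of 6 mice, 1 mouse lay far from the other 5, by a gap large relative to the range of the group. Chance sets a mouse apart in this way in about 1 in 20 groups. The 1010001N08Rik transcript ENSMUST00000231895 was at 0.177 FPKM in Control 1 and at 0.391 to 0.50 FPKM in the other Control mice. The lncRNA 4632427E13Rik (ENSMUST00000098305) was at 1.84 FPKM in PZH 5 and at 5.45 to 7.18 FPKM in the other PZH mice. The other transcript of that gene, ENSMUST00000182578, was at 2.52 FPKM in PZH 5 and at 0 to 0.205 FPKM in the other mice, and was not among the groups examined. Fam160b1 was at 10.5 FPKM in PZH 1, where the others ranged from 12.6 to 13.9 FPKM. Control 2 stood out for both Zfp410, at 5.72 FPKM against 1.72 to 2.95 FPKM, and Rab11b, at 15.4 FPKM against 2.28 to 4.88 FPKM. The summed level of the neutrophil markers was 139 FPKM in PZH 3, against 13.1 to 22.8 FPKM in the other PZH mice, and 62.4 FPKM in Control 4, against 18.3 to 33.9 FPKM in the other Control mice.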

How the results depend on the processing

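Against 14 lncRNAs higher and 3 lower, median-ratio scaling gave 27 and 0, and a minimum mean of 1 FPKM gave 3 and 1 of the 19 then tested. With FPKM summed per lncRNA gene, 19 of 114 genes passed in either direction, against 17 of 144 transcripts. The study's criterion gave 3 lncRNAs and 11 partners with a pseudocount of 0.1, against 0 and 2. Against 47 lower partners, scaling gave 29 (with 21 higher and 4 by the study's criterion), and the partner transcript with the nearest start gave 24 lower and 9 higher. Of pairs with r of at least 0.5, 6 were among the 18 with both at 1 FPKM or more, and 2 then had an adjusted exact permutation p below 0.05, as 2 did with a pseudocount of 0.1 (Gm45469 with Ppp1r3b and 9330162012Rik with Aldh5a1). With scaling the group difference in summed level was 23.0 FPKM and in median log2 level 0.11. Grtp1 changed sign to 0.13 with scaling and Zfp410 to 0.0285 at the transcript with the nearest start. Apart from the fewer features tested under the minimum, the cause was not tested.

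The numbers in the labels were taken as a replicate block only as an alternative: deviations of same-numbered PZH and Control mice correlated at −0.0732 to 0.0763. The labels do not say whether same-numbered mice had anything else in common. With the replicate block 10 lncRNAs were higher and 1 was lower, all among those passing without it, and 12 partners were higher and 45 lower.

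Leaving out each of the 12 mice in turn gave 12 to 17 lncRNAs higher, 1 to 4 lower and 0 to 0 by the study's criterion. The count of lower lncRNAs was 1 without PZH 1, PZH 3, Control 1 or Control 6. For partners it gave 12 to 16 higher, 40 to 48 lower and 2 to 5 by the study's criterion, with 4 without PZH 2 and 5 without Control 2 or Control 3. Pairs with r of at least 0.5 numbered 15 to 23, and those with an adjusted exact permutation p below 0.05 numbered 0 to 1, the 1 being without PZH 1. The difference in summed level was 10.4 to 13.4 FPKM and in median log2 level 0.05 to 0.08. Small differences changed sign among these: Gm16675 ranged from −0.0303 to 0.0518, Gm17251 from −0.0032 (without Control 2) to 0.18, and Grtp1 from −0.0839 to 0.026. Gm16675 was negative without PZH 2, 3 or 6 or Control 1, 2, 3 or 5, and Grtp1 positive without PZH 4 or Control 2, 4 or 6.

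Depth limits the scarce lncRNAs: 72 of the 144 rest on fewer than 10 fragments per mouse. Apart from depth, the pseudocount of 1 shrinks log2 differences at low FPKM, and only 19 of the 144 had a mean of at least 1 FPKM.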
